A study of Mus musculus with 30 samples.

Results

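The 6 genes described here are Sema5b, Sgk2, Gm19385, Dhrs2, Abca13 and Prokr2, out of 39676 genes listed in the counts. They were chosen from these same data for their low counts in tumors that secrete IFNα4, so their low level in those tumors is a description and supports nothing by itself. All 6 passed the filter on low counts (a mean count of 10 or more over the tumors) and were among the 15926 genes tested. Each was found under its symbol in the GENCODE M21 annotation of the mouse genome build GRCm38, in the same identifier version. They passed it through the tumor types in which they are high.

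The samples were 30 whole tumors that grew for 8 days under the skin of female C57BL/6 mice, an inbred strain, with 10 tumors of each of 3 types. Per the methods, mice were typically 8 to 12 weeks old. The tumors came from B16 melanoma, a pigmented mouse cell line, which had been transduced with retroviruses. The GFP tumors (B16.GFP.gB.luc) carried the vector with green fluorescent protein alone, and the IFNA4 (B16.IFNα4.gB.luc) and IFNA9 (B16.IFNα9.gB.luc) tumors carried the same vector with 1 type I interferon (IFN-I) gene, driven by the viral promoter. All 3 types, the GFP controls included, also expressed herpes simplex virus glycoprotein B (gB) with a cyan fluorescent protein, and luciferase with puromycin resistance. Each type was 1 engineered line, so a difference between interferons and a difference between lines cannot be told apart. The interferon was made by the tumor cells, and the host mice kept their own immune cells, so both tumor and host cells could respond to it.

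B16 cells stem from melanocytes and make the pigment enzymes of that lineage. IFN-I binds a receptor that nearly all cells carry, and its signal through STAT proteins turns on interferon-stimulated genes (ISGs) and can slow cell division. The 6 genes have no shared pathway. Dhrs2 encodes a short-chain dehydrogenase/reductase that reduces carbonyl compounds, and Abca13 a very large ATP-binding cassette transporter of the lipid-carrying A subfamily. Prokr2 encodes a G protein-coupled receptor for prokineticins, known for its part in the development of the olfactory bulb. Sema5b encodes a membrane-bound semaphorin with thrombospondin repeats, a family that guides axons, and Sgk2 a serine/threonine kinase related to SGK1 and AKT that acts on ion channels and transporters. Gm19385 is a long intergenic noncoding RNA (lincRNA) without an assigned function.

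The genes lie at separate places. Dhrs2 (ENSMUSG00000022209.12) spans chr14:55222007-55241435 on the plus strand, Abca13 (ENSMUSG00000004668.14) chr11:9191942-9684259 on the plus strand, and Prokr2 (ENSMUSG00000050558.13) chr2:132337733-132385447 on the minus strand. Sema5b (ENSMUSG00000052133.16) spans chr16:35541145-35664732 on the plus strand, Sgk2 (ENSMUSG00000017868.16) chr2:162987330-163014127 on the plus strand and Gm19385 (ENSMUSG00000110730.1) chr9:120861615-120866756 on the minus strand. None shares exon bases with another annotated gene. Sema5b alone shares any 50-base stretch of its transcripts with other genes, 0.124% of its stretches, so reads of the length used can be placed on the 6 genes almost throughout.

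RefSeq promoter sequences (GRCm38.p6) were found for 5 of the 6 genes, all but Sgk2. The 250 bases before the start are shown for Dhrs2, Abca13 and Prokr2, the genes that were also low in IFNA9 tumors and whose RefSeq and GENCODE starts coincide. Capitals mark a match to TGANTCA, the AP-1 site, or to TATAAA, the TATA box.
Dhrs2, chr14:55221757-55222006, plus strand: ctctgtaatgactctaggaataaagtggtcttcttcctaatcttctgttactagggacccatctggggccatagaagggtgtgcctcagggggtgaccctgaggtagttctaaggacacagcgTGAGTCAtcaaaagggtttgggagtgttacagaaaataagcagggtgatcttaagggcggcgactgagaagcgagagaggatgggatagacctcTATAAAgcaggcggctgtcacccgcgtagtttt
Abca13, chr11:9191692-9191941, plus strand: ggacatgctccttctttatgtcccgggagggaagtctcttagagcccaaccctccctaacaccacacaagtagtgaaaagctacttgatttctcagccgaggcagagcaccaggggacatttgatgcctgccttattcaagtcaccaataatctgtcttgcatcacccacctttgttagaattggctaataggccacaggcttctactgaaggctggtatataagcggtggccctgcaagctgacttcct
Prokr2, chr2:132385448-132385697, minus strand: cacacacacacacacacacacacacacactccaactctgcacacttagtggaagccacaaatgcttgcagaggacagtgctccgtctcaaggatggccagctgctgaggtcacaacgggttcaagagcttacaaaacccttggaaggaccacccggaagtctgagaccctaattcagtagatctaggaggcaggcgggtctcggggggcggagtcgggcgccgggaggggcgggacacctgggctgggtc
Dhrs2 has TATAAA at position −33 and TGANTCA at position −127, counted from the start. These letters were found in 7.59% and 6.75% of 32851 promoters of this length. Gm19385 has TGANTCA at position −199, and no other match was found in the 5 sequences for these motifs, nor for TCATGTG (M-box core, 3.25% of promoters), CACGTG (E-box, 6.02%), the ISRE half-site pair (GAAA, any 2 bases, GAAA; 2.98%) or TTCNNNGAA (GAS element, 7.02%). The TATA box was searched on the forward strand and the others on both strands, and the motifs do not overlap where they were found. The promoters are unlike in base composition. The GC content was 72% for Sema5b, 59.2% for Prokr2, 53.2% for Gm19385, 50% for Dhrs2 and 49.6% for Abca13, against a median of 52.4% over all promoters.

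Tumors had between 14598517 and 19788383 counts each (median 16712970.5), and no batch was named in the labels. GFP tumor 7 stood apart, with the lowest total and the lowest scaling factor (0.768, against 0.856 to 1.10 in the other GFP tumors), the highest melanocyte and cell cycle scores and the lowest leukocyte score of its type. Levels below are TMM-scaled CPM (counts scaled to a common library size) and rest on these totals and factors. Melanocyte genes were present in every type: 8 of the 12 fixed markers were found and tested, among them Tyr and Tyrp1, and their summed level ran from 8215 to 27380 CPM in GFP, from 2505 to 4044 CPM in IFNA4 and from 3773 to 9817 CPM in IFNA9 tumors. Pmel, Dct, Mlana and Sox10 were not analysed here.

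All 6 genes were expressed at low to moderate levels in GFP tumors and had at most 18 counts in any IFNA4 tumor. Their mean level in IFNA4 tumors was 2.34% of the GFP mean for Dhrs2, 2.81% for Abca13, 4.11% for Prokr2, 8.78% for Sema5b, 9.11% for Gm19385 and 12.8% for Sgk2. In IFNA9 tumors the 6 genes parted. Dhrs2, Abca13 and Prokr2 fell, to 13.7%, 11.7% and 28.3% of the GFP mean, while Sema5b (77.8%), Gm19385 (77.3%) and Sgk2 (104%) did not pass the test. These tumors are mixtures, so fewer cells that express a gene and less RNA per cell cannot be told apart.

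**Figure D1:**
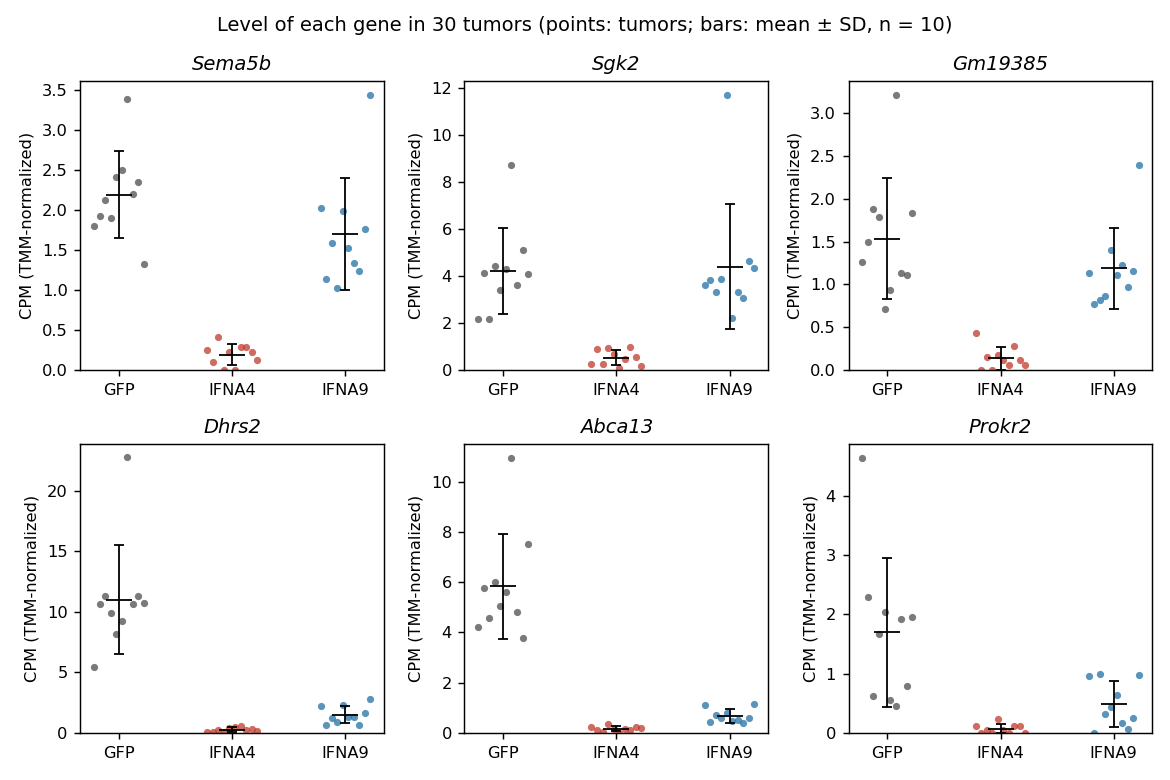
Level of each of the 6 genes in TMM-scaled CPM (vertical axis, linear, from 0) in GFP, IFNA4 and IFNA9 tumors, 10 tumors per type. Points are tumors and bars give the mean ± SD. The IFNA4 tumors lie below every GFP tumor for each gene, and the IFNA9 tumors lie near the GFP tumors for Sema5b, Sgk2 and Gm19385 but below all of them for Dhrs2 and Abca13.

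Dhrs2, the carbonyl reductase, had the highest level of the 6 per length, 8.68 ± 3.55 CPM per kb of exon in GFP tumors (SD, n = 10). Its counts ran from 99 to 255 (median 175) in GFP tumors, from 1 to 10 (median 4) in IFNA4 tumors and from 10 to 45 (median 24.5) in IFNA9 tumors. The tumors of the 3 types did not overlap in CPM: the mean level was 11.01 ± 4.50 CPM in GFP, 0.258 ± 0.195 CPM in IFNA4 and 1.504 ± 0.721 CPM in IFNA9 tumors (SD, n = 10 each). Every IFNA9 tumor thus lay between the other 2 types. The fitted log2 difference of IFNA9 from GFP tumors was −2.86 ± 0.298 (SE), with an adjusted p of 4.04e-09 in edgeR's quasi-likelihood test.

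Abca13, the large lipid transporter, behaved in the same way at a lower level per length (0.296 ± 0.106 CPM per kb in GFP tumors). Its counts ran from 58 to 123 (median 91) in GFP, from 0 to 6 (median 3) in IFNA4 and from 6 to 19 (median 10.5) in IFNA9 tumors. The mean level was 5.83 ± 2.09, 0.164 ± 0.103 and 0.680 ± 0.278 CPM. The 3 types did not overlap in CPM here either, the lowest IFNA9 tumor (0.390 CPM) lying just above the highest IFNA4 tumor (0.356 CPM). The log2 difference of IFNA9 from GFP tumors was −3.08 ± 0.262 (SE; edgeR, adjusted p = 5.72e-11).

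Prokr2, the prokineticin receptor, had the fewest counts of the 6 in IFNA4 tumors and varied the most among GFP tumors (coefficient of variation 73.9%). It had from 5 to 85 counts (median 30.5) in GFP tumors, from 0 to 4 in IFNA4 tumors, with 4 tumors at 0 and 12 counts in all 10 together, and from 0 to 17 (median 7) in IFNA9 tumors. The mean level was 1.69 ± 1.25 CPM in GFP, 0.0696 ± 0.0774 CPM in IFNA4 and 0.480 ± 0.387 CPM in IFNA9 tumors. The GFP and IFNA4 tumors did not overlap, whereas the IFNA9 tumors overlapped both, with 6 of 10 below every GFP tumor and 7 of 10 above every IFNA4 tumor. Its fall in IFNA9 against GFP tumors was −1.82 ± 0.469 in log2 (SE; edgeR, adjusted p = 0.00164). Without GFP tumor 1, which holds its highest level, the log2 difference was −1.497.

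Sema5b, the membrane semaphorin, had from 21 to 44 counts (median 36) in GFP tumors, from 0 to 8 (median 4) in IFNA4 tumors and from 19 to 56 (median 28) in IFNA9 tumors. The mean level was 2.19 ± 0.545, 0.193 ± 0.133 and 1.71 ± 0.699 CPM. GFP and IFNA9 tumors overlapped, with 3 IFNA9 tumors below and 1 above every GFP tumor, and both types lay above all IFNA4 tumors. The log2 difference of IFNA9 from GFP tumors was −0.36 (95% interval −0.90 to 0.19; edgeR, adjusted p = 0.262), so a moderate fall is within the interval.

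Sgk2, the kinase, had from 35 to 98 counts (median 67) in GFP, from 2 to 18 (median 9) in IFNA4 and from 42 to 218 (median 62.5) in IFNA9 tumors. Like Dhrs2, it had counts in all 10 IFNA4 tumors. The mean level was 4.22 ± 1.84, 0.539 ± 0.335 and 4.40 ± 2.66 CPM, and the highest IFNA9 value, 11.7 CPM in tumor 5, stood far from the other 9. The log2 difference of IFNA9 from GFP tumors was 0.07 (95% interval −0.54 to 0.67; edgeR, adjusted p = 0.856), and without that tumor it was −0.22, also not called. IFNA9 tumor 5 had the highest skeletal muscle score of its type as well (10.4, against 7.50 to 9.02 in the others), and the part of this tissue in its Sgk2 level was not tested.

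Gm19385, the lincRNA, had from 13 to 36 counts (median 25.5) in GFP, from 0 to 7 (median 2) in IFNA4 and from 13 to 39 (median 19) in IFNA9 tumors. The mean level was 1.54 ± 0.710, 0.140 ± 0.135 and 1.19 ± 0.469 CPM. All 10 IFNA9 tumors lay within the range of the GFP tumors and above every IFNA4 tumor. The log2 difference of IFNA9 from GFP tumors was −0.36 (95% interval −0.98 to 0.26; edgeR, adjusted p = 0.323).

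In the comparison of IFNA4 with GFP tumors, which is treated as used by the choice of the genes, the fitted log2 differences were −5.38 for Dhrs2, −5.11 for Abca13, −4.50 for Prokr2, −3.45 for Sema5b, −3.40 for Gm19385 and −2.94 for Sgk2, and their median was −3.97, against 0.01 for all tested genes. They ranked between the 52nd and the 106th lowest of 15926 genes. All 6 were called lower and none overlapped, where 34.1% of all genes tested were called lower, 31.3% were called higher and 10.0% were lower with no overlap. Nothing is read from these counts, since the genes were chosen for their low level in IFNA4 tumors.

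It is not stated against which tumors the low level of the 6 genes in IFNA4 tumors was judged, nor whether their levels in IFNA9 tumors were known then, and the comparison of IFNA9 with GFP tumors shares its GFP tumors with the one above. Its tests are to be read with that limit. Of the 6 genes, 3 were called lower in IFNA9 than in GFP tumors (Dhrs2, Abca13 and Prokr2) and 2 of these did not overlap, where 28.9% of all genes tested were called lower, 26.9% were called higher (5051 higher and 3610 lower when libraries were scaled by their totals alone, against 4281 and 4595) and 3.35% were lower with no overlap. With only 6 genes, a count of 3 is too small to be set against that background. Abca13 ranked 33rd, Dhrs2 52nd and Prokr2 146th lowest of all genes tested, which is given as a description because the GFP tumors may have entered the choice. The median over the 6 genes was −1.09 (0.00 over all genes).

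Between the interferons, the mean level of every gene was higher in IFNA9 than in IFNA4 tumors. This comparison shares the IFNA4 tumors in which the genes were chosen to be low, so its values too are a description, and nothing is read from the counts below. The log2 difference was 3.09 (95% interval 2.42 to 3.76) for Sema5b, 3.04 (2.26 to 3.82) for Gm19385, 3.01 (2.31 to 3.70) for Sgk2, 2.68 (1.36 to 3.99) for Prokr2, 2.51 (1.79 to 3.24) for Dhrs2 and 2.03 (1.37 to 2.69) for Abca13. All 6 were called higher and 5 did not overlap, where 10.5% of all genes tested were called higher, 7.25% were called lower and 2.08% were higher with no overlap. The fitted level in IFNA9 over that in IFNA4 tumors was 5.71-fold for Dhrs2 and 4.07-fold for Abca13.

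**Figure D2:**
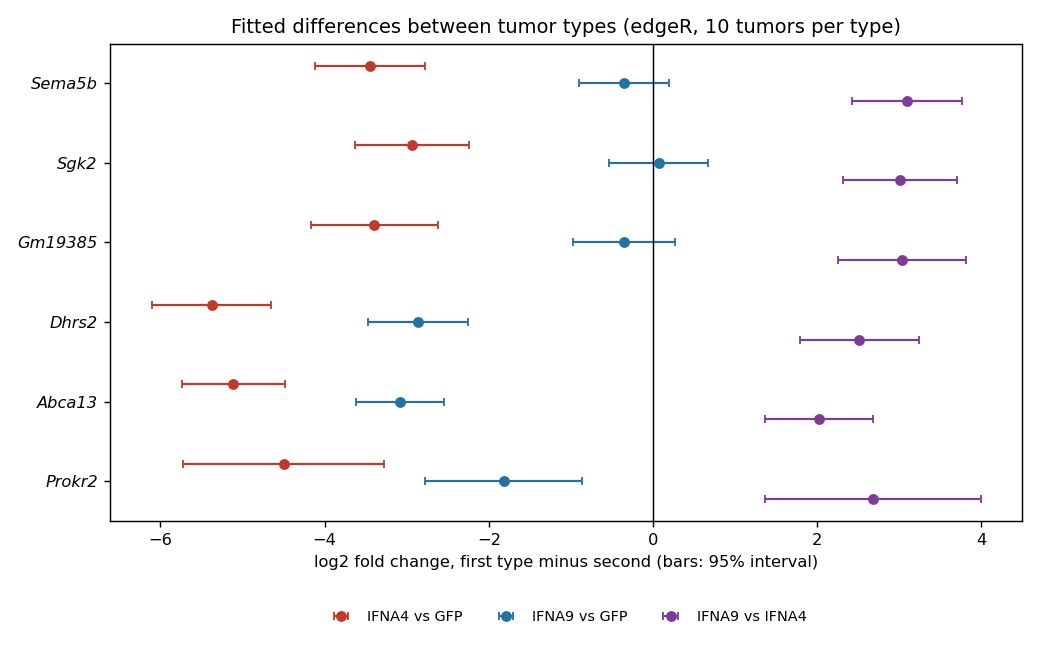
Fitted log2 fold change (horizontal axis) of each of the 6 genes in the comparisons of IFNA4 with GFP, IFNA9 with GFP and IFNA9 with IFNA4 tumors, first type minus second, with 95% intervals (edgeR, 10 tumors per type). The intervals for IFNA9 against GFP include 0 for Sema5b, Sgk2 and Gm19385 and lie below 0 for Dhrs2, Abca13 and Prokr2.

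The gene nearest to the start of Gm19385 had a like pattern of levels. Gm34425 (ENSMUSG00000111094.1), a second lincRNA, lies at chr9:120869160-120873860 on the opposite strand, with 2404 bases between the 2 genes, so that they point away from each other. Gm34425 had from 57 to 140 counts (median 64.5) in GFP, from 5 to 16 (median 12.5) in IFNA4 and from 30 to 130 (median 61.5) in IFNA9 tumors. Its mean level was 5.09 ± 2.49, 0.634 ± 0.246 and 3.88 ± 1.95 CPM, and the IFNA4 tumors overlapped neither other type. It was lower in IFNA4 than in GFP tumors (log2 difference −2.98 ± 0.301 SE; edgeR, adjusted p = 9.53e-10) and higher in IFNA9 than in IFNA4 tumors (2.60 ± 0.299; adjusted p = 5e-07), while IFNA9 differed from GFP by −0.38 ± 0.265 (adjusted p = 0.218). Gm34425 was named as the nearest annotated gene, but of the neighbors tested it alone had such a pattern and is shown in detail. Its tests are therefore given as a description.

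**Figure D3:**
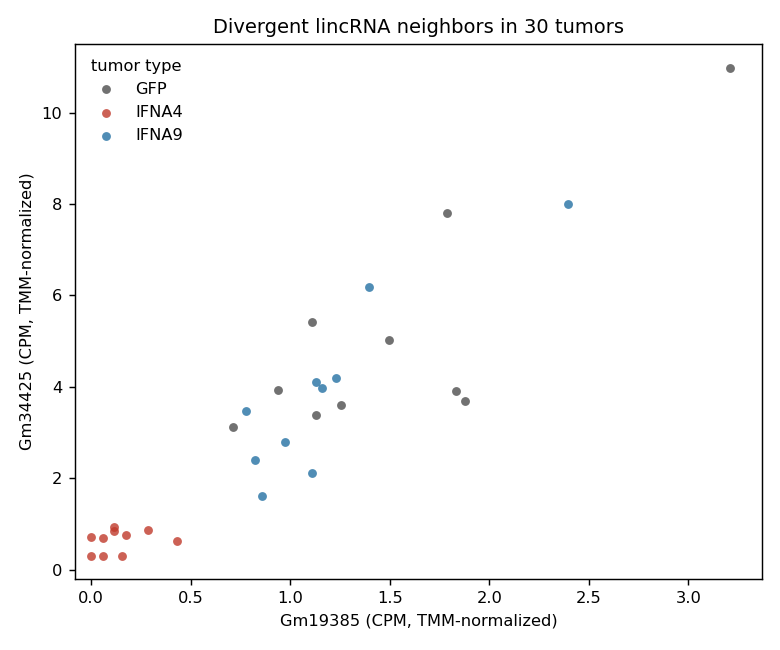
Level of Gm34425 (vertical axis) against that of its divergent neighbor Gm19385 (horizontal axis), both in TMM-scaled CPM, in 30 tumors colored by type. All 10 IFNA4 tumors lie in the lower left corner, at or below 0.931 CPM for Gm34425, and GFP and IFNA9 tumors are intermingled.

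Across the 30 tumors, the correlation of log2 CPM between Gm19385 and Gm34425 was r = 0.924, and it was 0.729 within GFP, 0.323 within IFNA4 and 0.801 within IFNA9 tumors (n = 10 each). These values describe tumors that share a library and a scaling factor for both genes. Of the nearest protein-coding genes, Ctnnb1, which encodes β-catenin and starts 62460 bases away, had log2 differences of −0.99 in IFNA4 and −0.72 in IFNA9 against GFP tumors. On the other side, Rpl14, which encodes a ribosomal protein, had −0.87 and −0.65.

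The genes most like each of the 6 across all tumors were in large part genes of DNA replication and cell division. For Dhrs2 they were Chaf1b (r = 0.969), a chromatin assembly subunit, Cdca3 (0.966), a regulator of mitotic entry, and Mcm3 (0.964), a subunit of the replicative helicase. For Abca13 they were Rrm2 (0.973), a ribonucleotide reductase subunit, Rpa1 (0.972), which binds single-stranded DNA, and the phosphatase Ppm1h (0.963). Sema5b was nearest to Gm19385 (0.926), Mcm10 (0.910), a replication initiation factor, and Gm34425 (0.905). Gm19385 was nearest to Kntc1 (0.929), a kinetochore protein, then to Sema5b and Gm34425. Sgk2 had other neighbors, the choline transporter-like Slc44a3 (0.927), the microvillus protein Vil1 (0.909) and Mns1 (0.904), and Prokr2 was close to Lmnb1 (0.853), the nuclear lamina protein lamin B1, and Utp14b (0.848). All are Pearson correlations over 30 tumors in which the differences between types dominate.

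The fixed cell cycle list was lower in both interferon types, as Dhrs2, Abca13 and Prokr2 were. All 12 of its genes were lower in IFNA4 and 11 of 12 in IFNA9 than in GFP tumors, with median log2 differences of −1.71 and −0.81, and 11 were higher in IFNA9 than in IFNA4 tumors (median 0.86). The melanocyte genes were lower too, 8 of 8 in both types against GFP (medians −1.96 and −1.13), and 5 of 8 were higher in IFNA9 than in IFNA4 tumors (median 0.64). For single melanocyte genes, the log2 difference ran from −2.37 to −0.997 in IFNA4 and from −1.66 to −0.59 in IFNA9 tumors. For the 6 genes it ran from −5.38 to −2.94 and from −3.08 to 0.07. The 6 genes were chosen for their low level in IFNA4 tumors, so nothing is read from their larger fall there. The summed cell cycle level was 1814 to 4348 CPM in GFP, 744 to 943 CPM in IFNA4 and 1001 to 2099 CPM in IFNA9 tumors. The part of melanocyte content and of cell division in the level of the 6 genes was not tested.

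Host cell markers moved in several directions. Of all genes tested, 31.3% were called higher and 34.1% lower in IFNA4 than in GFP tumors, and 26.9% and 28.9% in IFNA9. All 10 leukocyte genes were higher in both interferon types than in GFP tumors (medians 1.36 in IFNA4 and 0.95 in IFNA9), with a summed level of 498 to 1308 CPM in GFP, 1789 to 3691 CPM in IFNA4 and 1353 to 2546 CPM in IFNA9 tumors, and 1 of 10, Cd53, was lower in IFNA9 than in IFNA4 tumors. T and NK cell genes were higher for 10 of 10 in IFNA4 and 9 of 10 in IFNA9 tumors, with 2 of 10 lower in IFNA9 than in IFNA4. All 15 ISGs were higher in both types (medians 3.14 and 2.48), and 10 were lower in IFNA9 than in IFNA4 tumors (median −0.48). Of 8 macrophage genes, 2 were higher and 2 lower in IFNA4, 2 higher in IFNA9, and 1 higher in IFNA9 than in IFNA4 tumors. Of 8 fibroblast genes, 4 were higher and 1 lower in IFNA4, 2 higher and 1 lower in IFNA9, and 1 lower in IFNA9 than in IFNA4. Of 7 endothelial genes, 1 was higher and 5 lower in IFNA4, 4 lower in IFNA9, and 1 higher and 4 lower in IFNA9 than in IFNA4.

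Markers of the tissue around the tumor moved in other directions or not past the test. Of 9 keratinocyte genes, 6 were higher in IFNA4, 3 higher and 1 lower in IFNA9, and 1 lower in IFNA9 than in IFNA4 tumors. Of 10 skeletal muscle genes, none passed the test in IFNA4 against GFP tumors, 7 were lower in IFNA9 than in GFP and 9 lower in IFNA9 than in IFNA4. Of 7 adipocyte genes, Lpl was higher in IFNA9 than in GFP tumors, and no other difference passed the test in any of the 3 comparisons.

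Within a type, where the interferon does not differ, the 6 genes were set against the mean log2 CPM of the melanocyte, leukocyte and ISG lists in GFP and in IFNA9 tumors. Of these 36 relations, 12 had an adjusted p under 0.05 in permutation tests of Pearson's r (100000 resamples, two-sided). The cell cycle list was not used here, so its relation to the 6 genes within a type was not tested. IFNA9 tumor 10, highest of its type for Dhrs2, also had the highest cell cycle score (7.018). Tumor 8, lowest of the IFNA9 tumors for Dhrs2, had the lowest (5.927). In IFNA9 tumors, Dhrs2 was lower where leukocyte genes were higher (r = −0.898, permutation adjusted p = 0.00612; Spearman's rho = −0.976, adjusted p = 0.00108; n = 10), and r was −0.927 without the 2 tumors farthest from the median score. Sema5b followed the leukocyte score in the same direction (r = −0.759, permutation adjusted p = 0.0336; rho = −0.879, adjusted p = 0.0295; −0.869 without 2 tumors), as did Abca13 by r (−0.735, adjusted p = 0.0462; rho = −0.818, adjusted p = 0.0522; −0.751 without 2 tumors). Sgk2 had the same r as Sema5b with this score (r = −0.759, permutation adjusted p = 0.0336; rho = −0.539, adjusted p = 0.214), but r was −0.31 without 2 tumors. With the melanocyte score in IFNA9 tumors, Sgk2 had r = 0.770 (permutation adjusted p = 0.0226; rho = 0.721, adjusted p = 0.0687; 0.775 without 2 tumors). Gm19385 had r = 0.773 with that score (permutation adjusted p = 0.0292; rho = 0.770, adjusted p = 0.0522), which dropped to 0.244 without 2 tumors.

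In GFP tumors, the melanocyte score went with Abca13 (r = 0.903, permutation adjusted p = 0.0182; rho = 0.745, adjusted p = 0.0568), Dhrs2 (r = 0.862, adjusted p = 0.0182; rho = 0.758, adjusted p = 0.0522) and Gm19385 (r = 0.846, adjusted p = 0.0182; rho = 0.758, adjusted p = 0.0522). These relations rest in part on the 2 tumors farthest from the median score, GFP tumors 7 and 10. Without both, r was 0.56, 0.607 and 0.605. For Sgk2 in GFP tumors, r went from 0.789 (permutation adjusted p = 0.0336; rho = 0.612, adjusted p = 0.170) to 0.498. Abca13 was lower in GFP tumors with a higher leukocyte score (r = −0.880, permutation adjusted p = 0.0182; rho = −0.770, adjusted p = 0.0522; −0.768 without 2 tumors). Gm19385 was lower in GFP tumors with a higher ISG score (r = −0.829, permutation adjusted p = 0.0226; rho = −0.770, adjusted p = 0.0522), with r = −0.338 without 2 tumors. Gene and score share the library and its scaling factor in each tumor.

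**Figure D4:**
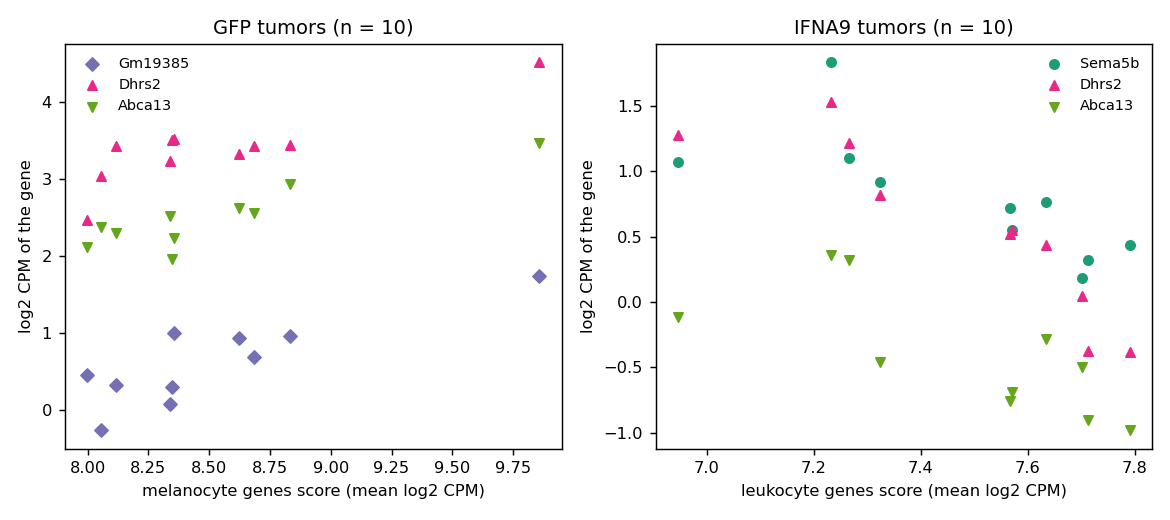
Log2 CPM of single genes (vertical axes) against the mean log2 CPM of the melanocyte list in 10 GFP tumors (left) and of the leukocyte list in 10 IFNA9 tumors (right). Each point is a gene in a tumor. The rightmost point of each gene on the left is GFP tumor 7 (score 9.856), and Dhrs2 declines to the right in the IFNA9 tumors.

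Some of the 6 genes had their highest levels in the same GFP or IFNA9 tumor, whereas among IFNA4 tumors each gene was highest in a different one. GFP tumor 7 had the highest CPM of its type for 5 of the 6 genes, among them Dhrs2 at 22.7 CPM and Abca13 at 10.97 CPM, but the lowest for Prokr2, 0.446 CPM from 5 counts. IFNA9 tumor 10 had the highest CPM of its type for 4 genes: Sema5b (3.44 CPM), Gm19385 (2.40 CPM), Dhrs2 (2.77 CPM) and Abca13 (1.17 CPM). It also had the highest melanocyte (8.09) and cell cycle (7.018) scores of the IFNA9 tumors. Its scores were the lowest of its type for macrophage, T and NK cell, fibroblast, endothelial, keratinocyte, skeletal muscle and adipocyte genes. Among the GFP tumors, Prokr2 went against each of the other 5 genes, with r from −0.728 (Dhrs2) to −0.322 (Abca13). In IFNA9 tumors r was 0.745 and 0.790 with the same 2 genes and ran down to 0.036 with Sgk2 (n = 10 tumors each, given as a description).

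Relatives of the 6 genes moved in both directions within each family in IFNA4 tumors, as did all genes tested. Of the latter, 31.3% were called higher and 34.1% lower in IFNA4 than in GFP tumors. The shares were 26.9% and 28.9% in IFNA9 against GFP tumors, and 10.5% and 7.25% in IFNA9 against IFNA4 tumors. The family counts here and in the next paragraph are small and are given as a description. Of 17 other semaphorins tested, 6 were higher and 3 lower in IFNA4 than in GFP tumors, 7 higher and 4 lower in IFNA9, and 1 higher and 2 lower in IFNA9 than in IFNA4. Sema6d, a semaphorin that binds plexin A receptors, was lower in both (log2 differences −0.84 and −0.67), and Sema4d, expressed by lymphocytes, was higher in both (1.99 and 1.02). Of 11 plexins and neuropilins, the semaphorin receptors, 3 were higher and 4 lower in IFNA4, 2 higher and 2 lower in IFNA9, and 4 higher in IFNA9 than in IFNA4 tumors. Of 7 SGK and AKT kinases and partners, 2 were higher and 2 lower in IFNA4 and 1 higher and 3 lower in IFNA9 than in GFP tumors, and none passed the test between the interferons. Sgk1, the best known relative of Sgk2, differed by 0.35 (adjusted p = 0.0554) and 0.11 (adjusted p = 0.582).

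Of 10 DHRS dehydrogenases tested, 1 was higher and 4 were lower in each interferon type than in GFP tumors, and none passed the test between the interferons. Of 12 ABCA transporters, 4 were higher and 1 lower in IFNA4 and 5 higher in IFNA9 than in GFP tumors. The lower gene was Abca4, a retinoid-linked lipid transporter, with a mean of 3.09 ± 0.780 CPM in GFP, 1.11 ± 0.407 CPM in IFNA4 and 4.08 ± 0.902 CPM in IFNA9 tumors. It was also the only ABCA gene called higher in IFNA9 than in IFNA4 tumors (log2 difference 1.87 ± 0.199 SE; edgeR, adjusted p = 1.48e-07). Of 6 genes of the prokineticin pathway, 2 were higher and 2 lower in each interferon type than in GFP tumors. Prokr1, the other prokineticin receptor, was among the lower ones, with 6.23 ± 1.51 CPM in GFP, 2.13 ± 0.508 CPM in IFNA4 and 3.10 ± 0.945 CPM in IFNA9 tumors (log2 differences −1.54 and −1.003; edgeR, adjusted p = 1.38e-08 and 2.07e-05), and no other gene of this list was called between the interferons (0.54 for Prokr1, adjusted p = 0.0344). Both prokineticin receptors were thus lower in both interferon types.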

How the data were processed

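RNA from 30 whole tumors was sequenced from 1 end (50 bases, libraries that keep the strand of mRNA). The authors checked reads with FastQC (0.11.3 in the submitters' processing notes), aligned them with HISAT2 (2.0.4) to a mouse genome named mm11 in the paper and mm10 in those notes, and summarized overlaps per gene with summarizeOverlaps. Raw counts were deposited. The overlap mode, strand setting, handling of multiply aligned reads and annotation release were not given in the sources used here. Symbols and coordinates come from GENCODE M21 (GRCm38), in which 39495 of 39676 identifiers were found.

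Genes whose mean count reached 10 were fitted together over all 30 tumors with edgeR 4.0.16 (R 4.3.3), TMM scaling and the quasi-likelihood test. Calls had an adjusted p under 0.05 (Benjamini-Hochberg over 15926 genes). Standard errors were derived from the F statistic. Log2 CPM took a prior count of 2. No pair of tumors within a type agreed within sampling noise (135 pairs). P-values measure the spread between these tumors of 1 line per type. The fit was tested on simulated data.

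The 6 genes and all gene lists were chosen with earlier results of these data known. The lists hold melanocyte, leukocyte, macrophage, T and NK cell, fibroblast, endothelial, keratinocyte, skeletal muscle and adipocyte markers, ISGs, cell cycle genes and relatives of the 6 genes. Other genes were named by rule: the 3 most correlated genes across and within types, the nearest annotated genes and those among the 4 most expressed of a list. A gene that the rule takes is not reported here. The nearest protein-coding genes and list genes outside that rule (Cd53, Lpl, Sema4d, Sgk1, Abca4, Prokr1) were named after their values were seen. Motifs were searched in RefSeq promoters. Alternatives were DESeq2 1.42.0, its size factors, library totals, filterByExpr, no filter, the replicate number as a block, fits of 20 tumors and leaving out each tumor. Plots used Python 3.11.15, pandas 2.3.3 and matplotlib 3.10.9.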

Additional observations from a re-analysis of the deposited data

Results flagged for a closer look

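A value was taken for a closer look where the highest or lowest tumor of a type stood far from the other 9 (Dixon's test, 95% level). Of 69 groups of 10 values searched, 13 had such a tumor, where chance alone gives about 1 in 20 groups, or 3.45. The groups share tumors and are not independent.

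GFP tumor 7 accounts for 8 of these. Its Dhrs2 level was the highest at 4.515 log2 CPM, with the next tumor at 3.516. The melanocyte score (9.856) and the cell cycle score (8.215) were also the highest of the GFP tumors. Its scores were the lowest for macrophage genes (5.543), T and NK cell genes (−0.683), fibroblast genes (7.096), keratinocyte genes (6.613) and ABCA transporters (3.607). Without it, the log2 difference of Dhrs2 was −5.18 in IFNA4 and −2.68 in IFNA9 against GFP tumors, and all calls for the 6 genes were kept.

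IFNA9 tumor 5 had the highest Sgk2 level (3.564 log2 CPM, next 2.251), the highest skeletal muscle score (10.403) and the highest score of DHRS dehydrogenases (4.438) of its type. IFNA9 tumor 10 had the highest Gm19385 level (1.330 log2 CPM, next 0.598) and the lowest keratinocyte score (7.672). Without IFNA9 tumor 10, the log2 difference of Gm19385 between IFNA9 and GFP tumors was −0.53, again not called. Why these tumors stood apart was not tested.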

How the results depend on the processing

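The number of the 6 genes called, and the number of all genes called lower (against GFP) or higher (IFNA9 against IFNA4), stayed within 1.5 times under every alternative in all 3 comparisons. Of 678 recomputed values, 675 kept their direction and side of the threshold, and 1 correlation, that of Sema5b with Gm19385, moved from 0.926 to 0.787 with Spearman's rho. The uncalled log2 difference of Sgk2 between IFNA9 and GFP tumors changed sign without GFP tumor 3 (−0.007) and without IFNA9 tumor 5 (−0.219), and over all tumors left out it ran from −0.219 to 0.248. With library totals in place of TMM, IFNA9 against GFP gave 5051 genes higher and 3610 lower, against 4281 and 4595, and the median of all genes moved by 0.10 in log2. A fit of only the 20 tumors compared called 1975 genes lower and 2363 higher in IFNA9 than in IFNA4 tumors, against 1154 and 1679. Tumors with the same replicate number did not deviate together (r from −0.267 to 0.302, above 0.1 for 2, 2 and 0 of 10 numbers), so the numbers pair nothing. With the replicate block, 5190 genes were lower in IFNA4 and 4359 in IFNA9 than in GFP tumors, 1488 were higher in IFNA9 than in IFNA4 tumors, and 6, 3 and 6 of the 6 genes were called as before. A tumor matched the like-numbered tumor best for 1, 1 and 0 of 10 numbers. Depth limits the genes most in IFNA4 tumors, where Prokr2 rests on 12 counts in all, Gm19385 on 24, Abca13 on 28 and Sema5b on 34.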

Other observations

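The other neighbors of the 6 genes that could be tested gave no second case like that of Gm34425. Pdia5, Dhrs4, Gm46455 and Gm49021 were not analysed here. The genes 1600019K03Rik, Gm47069, Gm36954, Vwc2 and 4921508D12Rik did not pass the filter on low counts. Of the neighbors of Dhrs2, only Jph4 was tested. L3mbtl1, a chromatin reader whose end lies 12808 bases before the start of Sgk2, was higher in both interferon types, by 1.34 ± 0.401 (SE; edgeR, adjusted p = 0.00448) in IFNA4 and by 2.17 ± 0.388 (adjusted p = 3e-05) in IFNA9 against GFP tumors in log2. Ift52, an intraflagellar transport gene 3227 bases beyond the end of Sgk2, was lower by 0.32 in IFNA4 tumors (adjusted p = 0.000321). Dirc2, next to Sema5b, differed by −0.03 and −0.23 (adjusted p = 0.751 and 0.0118), and Cds2, next to Prokr2, by 0.10 and −0.09 (adjusted p = 0.0613 and 0.127). Upp1, a uridine phosphorylase 55772 bases from Abca13, was lower by 0.93 and 1.06 (adjusted p = 0.000202 and 7.09e-05).

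After the mean of each type was subtracted, the gene most like each of the 6 over the 30 tumors was Arhgef39 for Dhrs2 (r = 0.799), Gm10069 for Abca13 (0.811), Mir17hg for Prokr2 (0.659), Gm12906 for Sema5b (0.676), Hadha for Sgk2 (0.766) and Gm3571 for Gm19385 (0.713). Hadha encodes a subunit of the mitochondrial enzyme of fatty acid oxidation and Mir17hg hosts a cluster of miRNAs. These correlations are chosen from all genes tested and are given as a description.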
